A study of Homo sapiens with 10 samples.

Results

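The genes examined here encode mitochondrial ribosomal proteins, the protein parts of the ribosome that works inside mitochondria. They were chosen by symbol, MRPL or MRPS followed by a number and at most 1 further letter, which takes 77 of the 36498 genes of the deposited table. These 77 carry 76 symbols, since MRPS17 is listed under a pair of gene identifiers. The choice used no measured value, although it was made with earlier results of these data known. The cells were AsPC-1, an established human pancreatic ductal adenocarcinoma line. 5 libraries, called control here, came from cells in complete RPMI medium, and 5, called starved, came from cells in RPMI without glutamine and with 10% dialysed fetal bovine serum, each for 24 h. Whether the serum of the control cells was dialysed is not clear from the labels, so the serum and the absence of glutamine cannot be told apart. All cells were grown before that in RPMI with 10% serum, sodium pyruvate, penicillin and streptomycin. The series asks what glutamine depletion does to these tumour cells, and its title names the epithelial-mesenchymal transition factor Slug.

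Mitochondria hold a small genome of their own, whose mRNAs encode core subunits of the respiratory chain and ATP synthase. These mRNAs are translated by a dedicated ribosome, the mitoribosome, with RNAs from the mitochondrial genome and proteins that are all encoded in the nucleus, made in the cytosol and imported. Many of these proteins descend from bacterial ribosomal proteins, and the others were gained by mitochondria. The large subunit joins amino acids and guides the new chain out through a tunnel towards the inner membrane, and the small subunit binds and reads the mRNA. Each subunit forms from single copies of most of its proteins, and their genes are usually expressed together. Glutamine is a main carbon source of the mitochondrial citric acid cycle and a nitrogen donor for nucleotide synthesis in proliferating cells.

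Expression was measured as CPM, the reads of a gene scaled so that each library sums to 1000000, from a kit that reads only the 3′ end of each mRNA. Library totals were 141763 to 474619 counts in control and 164008 to 593248 in starved cells, so that 1 count was worth between 1.69 and 7.05 CPM. The members together held 1310 to 4459 counts in a control library and 1073 to 3841 in a starved one. 3 counts over a whole group, the limit that a count of 0 allows, came to 1.85 CPM for control cells and 2.20 CPM for starved ones, for counting error only. Nothing in the labels says that replicates were separate cultures, so p-values measure only the spread between these libraries. The keratins and EPCAM that mark ductal epithelium were present in every library, where the 6 markers summed to 12066 to 13103 CPM under control conditions and to 2555 to 2852 CPM after starvation. 4 of those 6 markers (KRT8, KRT18, KRT19 and EPCAM) were called lower. Markers of other cell types summed to less than those of ductal epithelium, with all 4 acinar genes at 0, COL3A1 and DCN at 0 among 5 fibroblast genes (sum 84.6 to 157 and 21.2 to 36.6 CPM in control and starved libraries), CDH5 at 0 among 4 endothelial genes (0 to 4.97 and 0 to 36.6 CPM), and PTPRC at 2 counts and 1 count among 5 leukocyte genes (96.9 to 141 and 74.4 to 122 CPM). Of these, LUM, a fibroblast marker, was called lower (113 ± 28.5 to 26.3 ± 3.48 CPM), as was the leukocyte marker LYZ (76.4 ± 18.1 to 8.62 ± 3.08 CPM), and CD68 was called higher (43.6 ± 9.02 to 81.8 ± 19.4 CPM; SD, n = 5; limma). The part of any marker in the results below was not tested.

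Most genes for mitochondrial ribosomal proteins had a lower share of the mRNA in glutamine-starved cells. 75 of the 77 genes averaged at least 5 CPM over the 10 libraries and were tested, with limma on log2(CPM + 1) fitted across 11202 genes and a Benjamini-Hochberg adjusted p under 0.05 as the threshold of a call. 45 of the 75 fell, or 60.0%, where 26.1% of all tested genes were called lower. 5 rose, where 17.2% of all tested genes were called higher, and 25 were not called. The log2 change was below 0 for 63 of the 75 genes and for 57.3% of all tested genes. Its median was -0.81 over these genes and -0.22 over all tested genes. In 34 of the 75 every starved library lay below every control library, against 17.9% of all tested genes, and in 2, MRPS17 and MRPS16, every starved library lay above, against 12.5%. Since CPM are shares of a library, less of these mRNAs per cell and more of other mRNA cannot be told apart, and a smaller number of expressing cells would look the same.

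Added up, the 77 genes took 0.924%, 0.939%, 0.971%, 0.981% and 0.916% of the reads in control libraries 1 to 5. The starved libraries had 0.647%, 0.616%, 0.627%, 0.654% and 0.626%. The groups did not overlap, and the means were 0.946% ± 0.0286 in control and 0.634% ± 0.0159 in starved cells (SD, n = 5 each). Without the 5 members of highest mean level the shares were 0.777% ± 0.0241 and 0.517% ± 0.0183, again without overlap. As a description of the libraries, the mRNAs of the mitochondrial genome took 5.20% ± 0.319 in control and 3.38% ± 0.199 in starved cells, and the cytosolic ribosomal proteins 5.03% ± 0.311 and 4.15% ± 0.233.

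**Figure D1:**
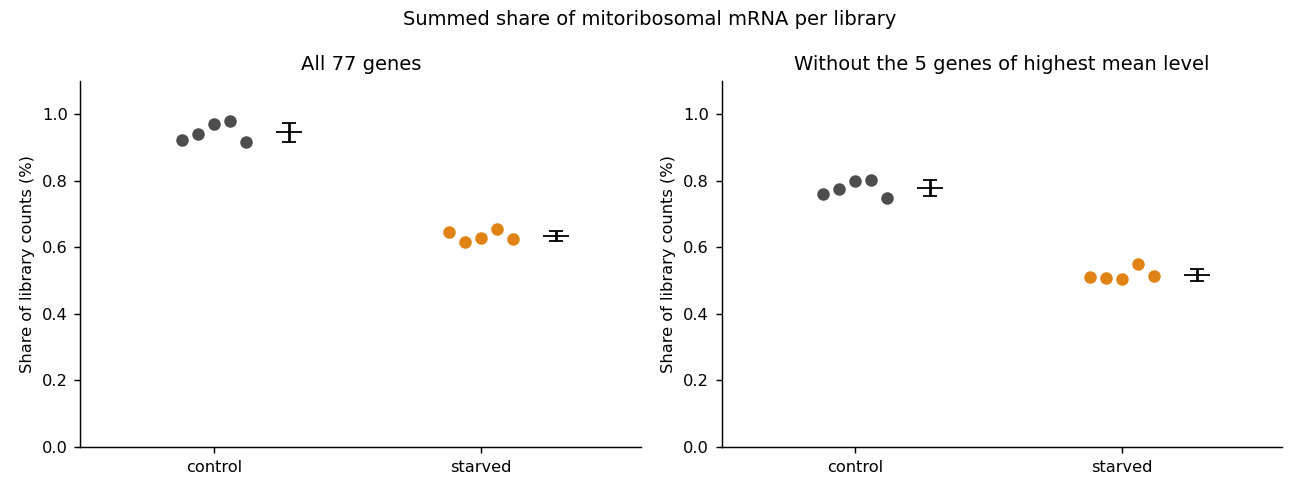
Percent of all counts in each library taken by the mitochondrial ribosomal protein genes, with 1 point for each of the 5 control and 5 starved libraries and the mean and SD of each group beside them, for all 77 genes (left) and without the 5 of highest mean level (right). On the left, all starved libraries, from 0.616% to 0.654%, lie below all control libraries, from 0.916% to 0.981%.

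The fall was not limited to genes with many or with few reads. Among members averaging under 50 CPM, 14 of 22 were called lower (63.6%), against 22.7% of all tested genes at that level. Between 50 and 150 CPM the call was made for 20 of 33 (60.6%), against 30.4%, and over 150 CPM for 11 of 20 (55.0%), against 36.6%. The median log2 change in these 3 ranges was -1.34, -0.83 and -0.42 for the members. For all tested genes it was -0.36, -0.04 and -0.05. Genes for cytosolic ribosomal proteins, which make the ribosomes of the cytosol, were called lower in 31 of 77 tested cases (40.3%) and higher in 3, with a median log2 change of -0.20. The difference between both ribosomes was not tested.

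**Figure D2:**
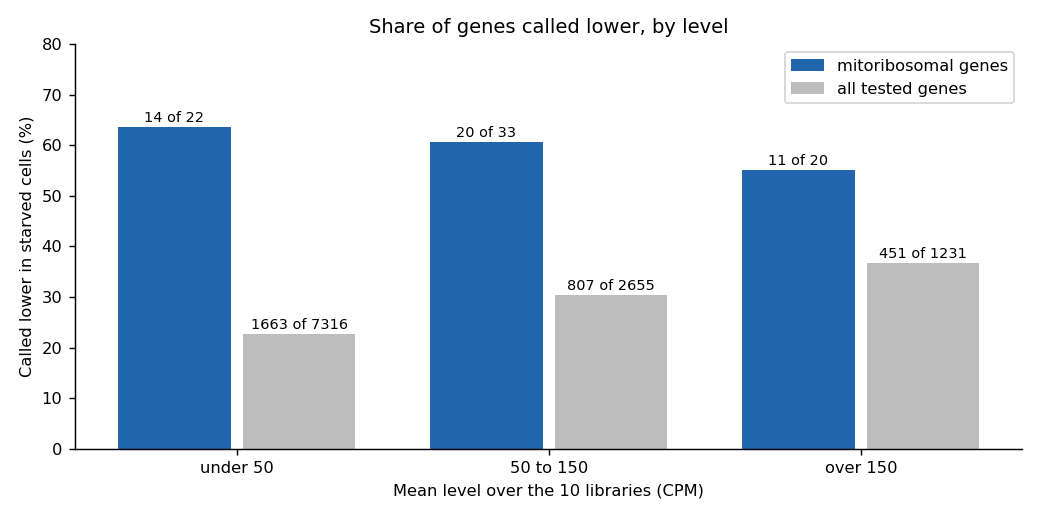
Percent of genes called lower in starved cells (vertical axis, from 0), by mean CPM over the 10 libraries, as bars for the mitochondrial ribosomal protein genes and for all tested genes, with the number called of the number tested above each bar. The members' bars stand at 63.6%, 60.6% and 55.0% and those of all tested genes at 22.7%, 30.4% and 36.6%.

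In both mitoribosomal subunits a larger share of genes fell than among all tested genes. Of all tested genes, 26.1% were called lower and 17.2% higher, with a median log2 change of -0.22. Of 49 tested genes for large-subunit proteins, 28 fell (57.1%), 3 rose and 18 were not called, with a median log2 change of -0.80. Of 25 tested genes for small-subunit proteins, 17 fell (68%), 2 rose and 6 were not called, with a median of -0.87. MRPS30 and MRPS18A are counted with the large subunit, where their proteins sit in spite of their symbols. Proteins with a bacterial counterpart and those found only in mitochondrial ribosomes had like counts, 27 of 44 and 18 of 30 called lower, with medians of -0.83 and -0.72. MRPS36, whose protein belongs to the oxoglutarate dehydrogenase complex rather than to the mitoribosome, averaged 129.9 ± 25.2 CPM without and 101 ± 17.4 CPM with starvation (SD, n = 5) and was not called (limma, adjusted p = 0.12).

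**Figure D3:**
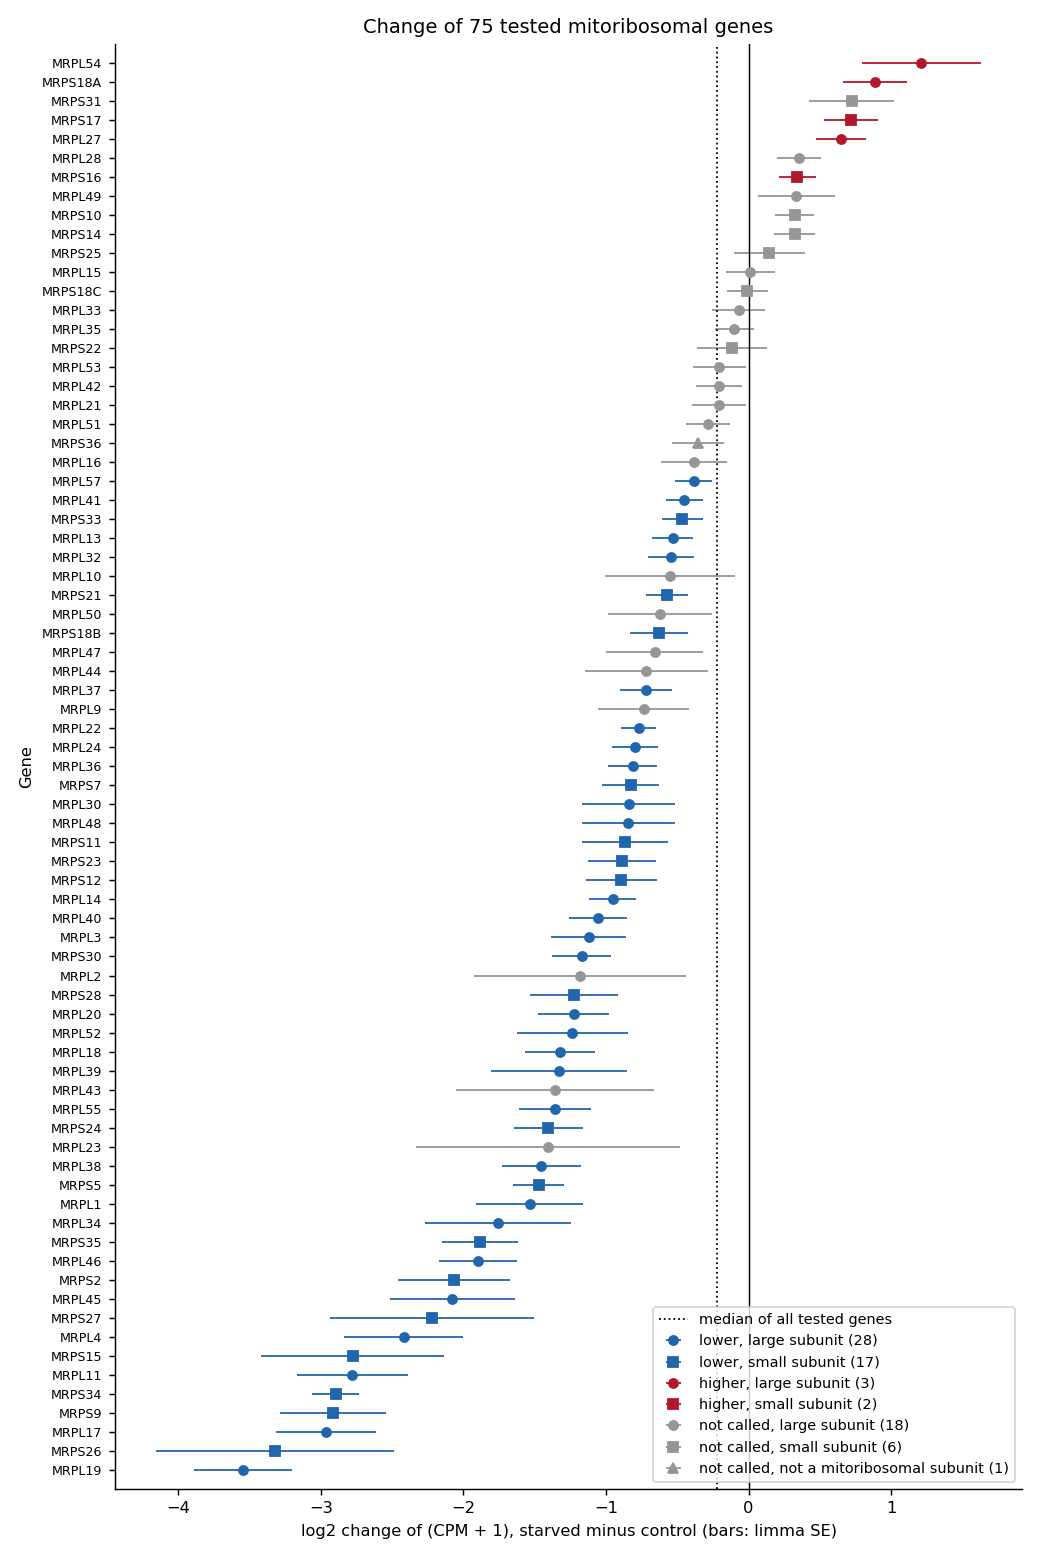
Log2 change (starved minus control, on the log2(CPM + 1) scale, bars are standard errors) of each of the 75 tested genes, ordered by size, coloured by call and shaped by subunit, with the median of all tested genes as a dotted line. 45 genes called lower reach from -3.55 to -0.38, and the 5 called higher from 0.34 to 1.21.

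In the large subunit the largest fall was that of MRPL19 (ENSG00000115364.13), whose protein is the counterpart of bacterial L19. Its level was 119.9, 109.6, 94.4, 93.5 and 101 CPM in control libraries 1 to 5. In the starved libraries it was 6.74, 9.92, 13.9, 6.10 and 5.31 CPM. The 5 starved values all lay far under the lowest control value, 12.3 times lower on average (103.7 ± 11.1 against 8.40 ± 3.56 CPM, SD, n = 5), on 166 and 11 counts. The log2 change was -3.55 ± 0.34 (SE; limma, adjusted p = 3.19e-08). MRPL17, a protein at the rim of the tunnel exit, had 162, 139, 184, 212 and 111 CPM in control and 33.7, 24.8, 23.2, 24.4 and 5.31 CPM in starved libraries. Here too the groups lay apart, with a log2 change of -2.96 ± 0.35 (limma, adjusted p = 6.72e-07). MRPL11, at the base of the stalk that recruits translation factors, measured 119.9, 112, 122, 113 and 124 CPM in control. The control libraries were close to each other, while the starved ones spread over 11.8, 4.96, 46.5, 24.4 and 15.9 CPM, all lower (log2 change -2.78 ± 0.39; limma, adjusted p = 6.08e-06).

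MRPL4, a protein that lines the tunnel, stood at 35.3, 73.7, 62.1, 68.9 and 55.6 CPM in control against 20.2, 9.92, 13.9, 6.10 and 5.31 CPM in starved libraries. The groups did not overlap, and the log2 change was -2.42 ± 0.42 (limma, adjusted p = 7.62e-05). For MRPL45, which sits where the chain leaves the ribosome at the membrane, control libraries had 84.6, 54.8, 47.2, 44.3 and 60.7 CPM and starved libraries 8.43, 4.96, 18.6, 36.6 and 10.6 CPM. Starved library 4 came nearest to the control range, and the log2 change was -2.08 ± 0.44 (limma, adjusted p = 0.000644). MRPL46 belongs to the central protuberance, the crest of the large subunit that faces the small one. It measured 134, 96.9, 64.6, 113 and 114 CPM in control and 21.9, 19.8, 23.2, 30.5 and 42.5 CPM in starved libraries, again without overlap (log2 change -1.90 ± 0.27; limma, adjusted p = 8.38e-06).

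Places in the large subunit were assigned for only part of its genes, and MRPL27, MRPL33 and MRPL35, for example, had none. MRPL27 rose, and MRPL33 and MRPL35 were not called (log2 changes 0.65, -0.07 and -0.10). The counts by place therefore hold for the assigned genes only and not for whole regions of the subunit. Of all tested genes, 26.1% were called lower. All 6 genes assigned to the central protuberance fell (MRPL18, MRPL38, MRPL40, MRPL46, MRPL48 and MRPL55), with log2 changes from -1.90 to -0.84. In 5 of them, all but MRPL48, every starved library lay below every control library, against 17.9% of all tested genes. MRPL38, which resembles a family of lipid-binding proteins, went from 76.3 ± 14.6 to 27.7 ± 7.95 CPM (SD, n = 5; limma, adjusted p = 0.000215), MRPL55 from 117 ± 36.8 to 44.5 ± 12.7 CPM and MRPL40 from 154 ± 16.9 to 76.6 ± 28.5 CPM. MRPL48 had the smallest fall of the 6, from 50.3 ± 8.59 to 29.4 ± 13.6 CPM (limma, adjusted p = 0.042). Of the 8 genes for proteins around the tunnel exit, MRPL17, MRPL22, MRPL24, MRPL39 and MRPL45 fell. MRPL23, MRPL44 and MRPL47 were not called, and the log2 changes of all 8 were between -2.96 and -0.66. MRPL22 had the most reads of the members in control cells, 444 ± 51.4 CPM, against 260.4 ± 38.9 CPM in starved cells (SD, n = 5; log2 change -0.77; limma, adjusted p = 3.63e-05). The proteins of the stalks were mixed: MRPL1 and MRPL11 fell, MRPL54 rose, and MRPL10 and MRPL53 were not called. The smallest fall among the calls was that of MRPL57, from 264 ± 8.0 to 204 ± 31.1 CPM (limma, adjusted p = 0.0195).

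Of 29 tested large-subunit genes with a bacterial counterpart, 17 fell (58.6%), where 26.1% of all tested genes were called lower. MRPL27 rose, and 11 were not called, among them MRPL2, MRPL15, MRPL16, MRPL21 and MRPL28. Some of those that fell are given here by group means. MRPL3, the counterpart of bacterial L3 near the catalytic centre, went from 118 ± 14.3 to 57.7 ± 21.8 CPM (SD, n = 5; limma, adjusted p = 0.00159). MRPL14, the counterpart of L14 at the face between the subunits, went from 232 ± 40.2 to 119.7 ± 21.5 CPM, and MRPL20, the counterpart of L20, from 165 ± 21.6 to 75.4 ± 29.2 CPM. In these 3 genes every starved library lay below every control library. MRPL13 had many reads and a small fall with overlap between the groups, from 314 ± 34.5 to 219.7 ± 47.5 CPM (log2 change -0.53, limma, adjusted p = 0.00538). So did MRPL41, which is mitochondria-specific and not among the 17, from 386 ± 38.1 to 285 ± 50.9 CPM (log2 change -0.45, limma, adjusted p = 0.0072). MRPS30, also mitochondria-specific and placed in the large subunit, went from 142 ± 37.2 to 61.9 ± 13.5 CPM.

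Among the small-subunit genes, MRPS34 combined many reads with a large fall. MRPS34 is a mitochondria-specific protein that binds the small ribosomal RNA. Control libraries had 289, 312, 333, 349 and 308 CPM and starved libraries 42.1, 44.6, 46.5, 30.5 and 47.8 CPM. Both groups were tight and far apart, 7.53 times lower in starved cells on 516 and 58 counts (log2 change -2.90 ± 0.17; limma, adjusted p = 6.65e-12). MRPS9, the counterpart of bacterial S9, had 49.4, 94.8, 96.9, 78.7 and 55.6 CPM in control and 8.43, 9.92, 9.3, 12.2 and 5.31 CPM in starved libraries. No starved library reached the lowest control value, and the log2 change was -2.91 ± 0.37 (limma, adjusted p = 1.76e-06), or -3.65 after thinning to equal depth. MRPS2, the counterpart of bacterial S2, measured 77.6, 63.2, 69.6, 54.1 and 68.2 CPM in control and 32.0, 14.9, 9.3, 6.10 and 26.5 CPM in starved libraries, without overlap (log2 change -2.07 ± 0.39; limma, adjusted p = 0.000228).

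MRPS15, the counterpart of bacterial S15, had 63.5, 78.0, 64.6, 103 and 70.8 CPM in control and 21.9, 0, 9.3, 24.4 and 26.5 CPM in starved libraries. All 5 starved values were lower (log2 change -2.78 ± 0.64; limma, adjusted p = 0.00141). The change was -1.91 without starved library 2, the one at 0, and -1.98 with edgeR, and the ratio of the mean CPM was 4.63. MRPS26 and MRPS27 rested on few reads and overlapped between the groups. MRPS26, a mitochondria-specific protein, had 21.2, 23.2, 44.7, 34.4 and 25.3 CPM in control, and 8.43, 0, 23.2, 0 and 0 CPM in starved libraries, from 49 and 10 counts (log2 change -3.32 ± 0.83; limma, adjusted p = 0.00287). The ratio of the mean CPM was 4.70, and the log2 change was -1.90 with edgeR, -2.01 with DESeq2, -1.97 with a pseudocount of 5 and -4.08 without starved library 3, so its size is uncertain although the call was kept. MRPS27, a pentatricopeptide repeat protein of a family that binds RNA, had 14.1, 56.9, 39.8, 68.9 and 60.7 CPM in control and 16.9, 0, 18.6, 30.5 and 5.31 CPM in starved libraries, from 83 and 20 counts. Control library 1 was the low one, and the log2 change was -2.22 ± 0.72 (limma, adjusted p = 0.0159). Without starved library 2, which was at 0, it was -1.42, and the ratio of the mean CPM was 3.37. MRPS35 went from 143 ± 25.3 to 41.2 ± 22.3 CPM (SD, n = 5; limma, adjusted p = 6.99e-06) without overlap. MRPS12, the counterpart of the S12 protein of the decoding centre, went from 92.5 ± 14.1 to 51.5 ± 17.3 CPM, and MRPS7 from 93.0 ± 12.2 to 51.8 ± 4.47 CPM, also without overlap. MRPS5, with more reads, went from 321 ± 27.1 to 119.5 ± 35.1 CPM (SD, n = 5; limma, adjusted p = 1.03e-06).

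**Figure D4:**
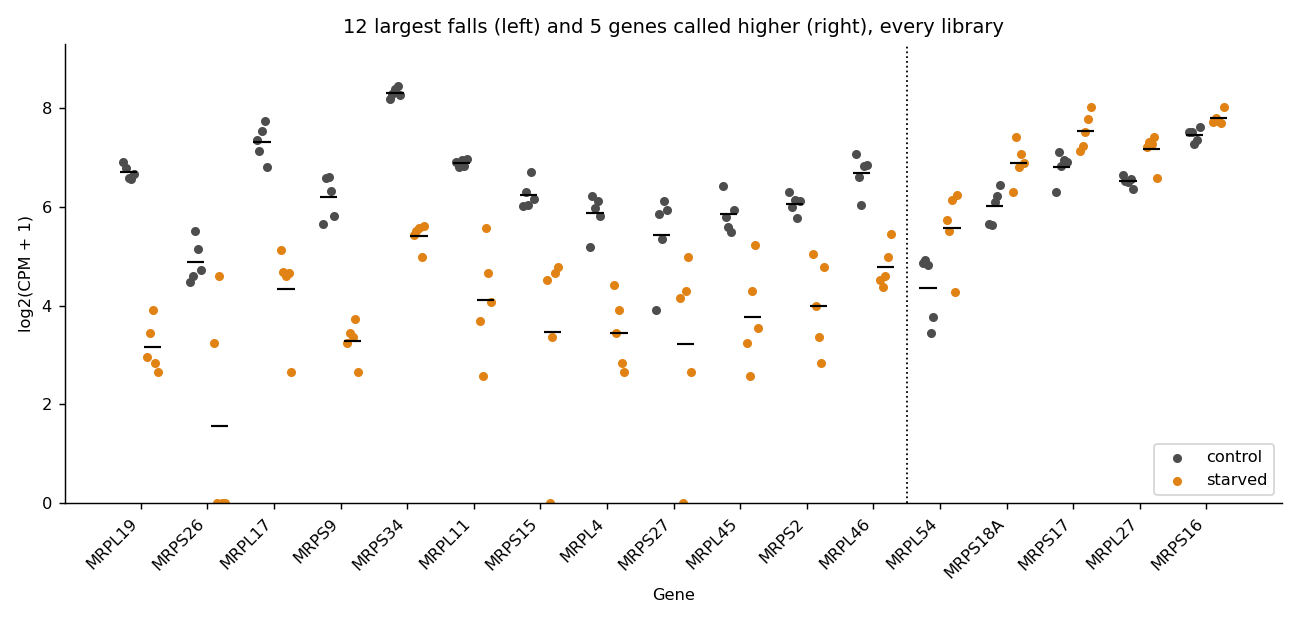
Level of 17 genes in each library, as log2(CPM + 1), for the 12 genes with the largest falls and the 5 called higher, with control and starved libraries in different colours and the group mean on that scale as a bar. The points at 0 on the left are starved libraries in which MRPS26, MRPS15 or MRPS27 had no read.

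5 genes went the other way. MRPS18A, whose protein sits in the large subunit, had 49.4, 48.5, 67.1, 73.8 and 85.9 CPM in control and 77.5, 169, 112, 134 and 117 CPM in starved libraries. Only starved library 1 lay inside the control range, and the mean was 1.87 times higher (log2 change 0.89 ± 0.22; limma, adjusted p = 0.00308). MRPS17, the counterpart of bacterial S17, had 77.6, 137, 112, 123 and 119 CPM in control and 139.9, 149, 181, 219.5 and 260.1 CPM in starved libraries. The ranges did not overlap, although the highest control and the lowest starved library nearly met (log2 change 0.72 ± 0.19; limma, adjusted p = 0.00397). MRPL27, the counterpart of bacterial L27, had 98.8, 90.6, 89.5, 93.5 and 80.9 CPM in control and 147, 159, 153, 171 and 95.5 CPM in starved libraries. 4 of the 5 starved libraries lay above all controls and the last one, starved 5, inside their range (log2 change 0.65 ± 0.18; limma, adjusted p = 0.00536).

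The calls of MRPL54 and MRPS16 were less firm. MRPL54 had 28.2, 29.5, 27.3, 9.84 and 12.6 CPM in control and 52.3, 44.6, 69.7, 18.3 and 74.3 CPM in starved libraries, from 36 and 72 counts. Starved library 4 lay inside the control range, and the log2 change was 1.21 ± 0.42 (limma, adjusted p = 0.0236). That call was lost without control library 4 (adjusted p = 0.0630) or 5 (0.0596), without starved library 1 (0.0536), 3 (0.0679) or 5 (0.0692), and with all libraries thinned to the same depth (0.0968). MRPS16 had 183, 183, 154, 162 and 195 CPM in control and 209, 223, 214, 207 and 260.1 CPM in starved libraries. The change was small but without overlap, 1.27 times higher (log2 change 0.34 ± 0.13; limma, adjusted p = 0.0396). It lost its call in 13 of 23 alternatives, with adjusted p-values up to 0.173, among them without control library 2, 3 or 4 or starved library 2, 3 or 5. MRPL27 lost its call only after thinning (limma, adjusted p = 0.0857), and MRPS18A and MRPS17 kept theirs in all 23.

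25 tested genes were not called, and the 4 of these with the highest mean CPM showed what that looked like. MRPS18C stood at 212, 211, 256, 300.1 and 195 CPM in control and 224, 238, 186, 262 and 249 CPM in starved libraries. The groups lay over each other, with a log2 change of -0.01 ± 0.14 (limma, adjusted p = 0.971), whose sign turned under other scalings. MRPL35 had 190.5, 204, 221, 207 and 197 CPM in control and 170.2, 243, 191, 165 and 191 CPM in starved libraries (log2 change -0.10 ± 0.14; limma, adjusted p = 0.580). MRPL42 had 226, 156, 211, 266 and 167 CPM in control and 170.2, 203, 135, 171 and 202 CPM in starved libraries (log2 change -0.21 ± 0.16; limma, adjusted p = 0.321). The starved range of MRPL35 covered its whole control range, and that of MRPL42 only the lower part of its control range. MRPS10 had 169, 209, 186, 177 and 182 CPM in control and 233, 183, 251, 280.5 and 218 CPM in starved libraries. Starved library 2 was the one inside the control range, and the log2 change was 0.32 ± 0.14 (limma, adjusted p = 0.0607). MRPS10 passed the threshold with edgeR, with DESeq2, with median-of-ratios scaling and without starved library 2, at adjusted p-values of 0.0172, 0.0485, 0.0201 and 0.0222. Close to the threshold were also MRPS31 (46.7 ± 19.0 and 75 ± 21.8 CPM; limma, adjusted p = 0.0536), MRPL28 (149.7 ± 21.3 and 191 ± 26.3 CPM; 0.0632) and MRPS14 (159.7 ± 21.5 and 200.1 ± 26.7 CPM; 0.0779), each with the higher mean in starved cells, and MRPL9 (67.1 ± 30 and 38.8 ± 13.1 CPM; 0.067). MRPL15, with 126 ± 23.2 and 127 ± 19.4 CPM, differed by less than the spread between libraries (log2 change 0.01 ± 0.17; limma, adjusted p = 0.963). Uncalled members also included genes of few reads with log2 changes under -1, such as MRPL23 (-1.41), MRPL43 (-1.36) and MRPL2 (-1.18), whose standard errors were 0.93, 0.70 and 0.74.

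MRPL12 and the second MRPS17 identifier were listed at 0 in every library. MRPL12 encodes a stalk protein that also binds the mitochondrial RNA polymerase. In the GENCODE 29 annotation, used here only to find neighbouring genes and not the build of the files, MRPL12 shares 701 exon bases on the same strand with a gene that the table lists as RP13-1032I1.10 (ENSG00000262660.1). That gene had 98.8, 135, 167, 123 and 136 CPM in control and 27.0, 19.8, 27.9, 30.5 and 10.6 CPM in starved libraries (log2 change -2.52 ± 0.28; limma, adjusted p = 2.59e-07). All its starved values lay below its control values, and which of both genes its reads came from cannot be told from the table. MRPS28 shares 650 exon bases on the same strand with RP11-26J3.4, which went from 101 ± 33.5 to 12 ± 6.89 CPM (SD, n = 5; limma, adjusted p = 1.20e-06) while MRPS28 went from 50.8 ± 6.75 to 21.5 ± 5.23 CPM and also fell. MRPS24 shares 606 with URGCP-MRPS24, which averaged 43.0 ± 14.9 and 66.7 ± 25.8 CPM and was not called (limma, adjusted p = 0.12), while MRPS24 itself fell from 184 ± 48.7 to 69.3 ± 20.3 CPM.

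In all, 40 members share exon bases with another gene of the table, 27 of them with a tested one. Whether counting used strand is not given in the sources used here, so reads of partners on opposite strands are uncertain too. MRPL19 shares 132 bases with GCFC2 on the other strand, which fell from 49.6 to 22.2 CPM (limma, adjusted p = 0.023). MRPS14 was not called although CACYBP, with which it shares 351 bases, fell from 460.4 to 75.8 CPM (limma, adjusted p = 1.04e-11). The 27 rows of pseudogenes of these genes held 36 counts in control and 26 in starved cells, against 15293 and 8685 for the members.

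The other proteins of the mitoribosome, listed under symbols outside the rule, went the same way or were not called. Of 6 such genes, 3 fell and none rose, with a median log2 change of -0.61. Among all tested genes 26.1% fell and 17.2% rose, with a median of -0.22. GADD45GIP1, whose protein is also known as a nuclear regulator of the cell cycle, went from 622 ± 136 to 158 ± 58.3 CPM (SD, n = 5; limma, adjusted p = 6.35e-08). ICT1, a large-subunit protein related to enzymes that free stalled chains, went from 70.5 ± 19.9 to 20.3 ± 9.99 CPM, and PTCD3, which binds RNA on the small subunit, from 93.3 ± 13.2 to 59.8 ± 14.8 CPM. DAP3, CHCHD1 and AURKAIP1 were not called.

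Genes that build and serve the mitoribosome were called lower more often than higher, as were all tested genes (26.1% lower, 17.2% higher). Of 25 tested factors for assembly and for modification of the ribosomal RNA, 10 fell (40.0%) and 2 rose, with a median log2 change of -0.77. MALSU1, which keeps the subunits apart during assembly, went from 141 ± 12.8 to 29.6 ± 12.2 CPM (SD, n = 5; limma, adjusted p = 2.69e-07). The methyltransferase gene TFB1M, which acts on the small ribosomal RNA, went from 41.9 ± 4.99 to 14 ± 7.52 CPM. FTSJ2, a methyltransferase of the large ribosomal RNA, went from 59.7 ± 15.7 to 26.8 ± 9.46 CPM, and NOA1, a GTPase, had 20 counts in control and 3 in starved libraries (limma, adjusted p = 0.00192). RNMTL1, another methyltransferase of the large ribosomal RNA, rose from 17.8 ± 7.68 to 40.2 ± 18.6 CPM, and the GTPase gene MTG2 from 39.1 ± 7.89 to 63.4 ± 17.3 CPM. Of 16 tested translation factors, 8 fell (50%) and none rose, with a median of -1.21. These included TUFM, the elongation factor that brings tRNAs, from 230.1 ± 30.8 to 93.0 ± 25.8 CPM, and MTIF2, an initiation factor, from 140.5 ± 20.5 to 43.0 ± 14.4 CPM. SLIRP, which stabilises mitochondrial mRNAs, went from 218 ± 28.6 to 82.9 ± 16.8 CPM, and PDF, which removes the formyl group from new chains, from 53.1 ± 8.42 to 18.6 ± 1.69 CPM.

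Further from the ribosome, the pattern differed between lists. Of all tested genes, 26.1% fell and 17.2% rose, with a median log2 change of -0.22. Of 9 genes for transcription and upkeep of the mitochondrial genome, 3 fell (33.3%) and 1 rose (11.1%), with a median log2 change of -0.16. These values are near those of all tested genes. SSBP1, which coats single-stranded mitochondrial DNA, went from 556 ± 79.4 to 215 ± 21.8 CPM (SD, n = 5; limma, adjusted p = 8.90e-09), and POLRMT, the mitochondrial RNA polymerase, from 31.4 ± 15.3 to 3.53 ± 3.88 CPM. TFB2M, its initiation factor, rose from 20.7 ± 9.55 to 63.2 ± 16.4 CPM (limma, adjusted p = 0.000818). Among the mRNAs of the mitochondrial genome itself, 10 of 13 fell (76.9%, beside 60.0% of the mitoribosomal genes) and none rose, with a median of -0.49. Of 8 tested regulators of nuclear genes for mitochondria, MYC rose, and PPARGC1B and YY1 fell, from 20.4 ± 9.70 to 0.674 ± 1.51 CPM and from 219 ± 34.1 to 163 ± 29.8 CPM. GABPA, the ETS factor also called NRF2, its partner GABPB1, and NRF1 were not called.

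Promoter sequences were looked up in RefSeq (GRCh38.p14), which gave 83 windows for 67 of the 76 symbols, each from 250 bases before to 50 after a gene's start. Both strands were searched for the ETS core CCGGAAG, the YY1 core ATGGCGGC, the 10-letter palindromic core of NRF1, the E-box CACGTG and the amino acid response core TGATGNAA, none of which holds another. The YY1 core begins with the letters of a start codon. An ETS core stood in 38.6% of the members' windows, against 17.7% of the windows of all tested genes and 10.3% of all 35116 windows. The YY1 core stood in 22.9%, against 5.8% and 3.0%. The E-box stood in 10.8% and 9.8% of the windows of members and of all tested genes, the NRF1 core in 1.2% and 2.1%, and the amino acid response core in 1.2% and 1.9%. Counted by gene, at least 1 window with an ETS core belonged to 43.3% of the members and 23.9% of all tested genes. By call it was 14 of 43 lower genes (32.6%), 4 of 5 higher genes and 11 of 18 uncalled genes (61.1%). The YY1 core was found for 12 of 43 lower genes (27.9%), 1 of 5 higher genes and 5 of 18 uncalled genes (27.8%). Lower and uncalled genes thus had like shares of the YY1 core. These motifs were chosen after the table was seen, and a match is a stretch of letters, not a bound site.

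5 windows are shown, picked after their motifs and values were seen, to set 3 genes that fell beside 2 that rose. MRPL19 (chr2:75646533-75646832, plus strand), MRPS34 (chr16:1773085-1773384, minus strand) and MRPL46 (chr15:88467339-88467638, minus strand) fell, and MRPS18A (chr6:43687742-43688041, minus strand) and MRPL27 (chr17:50373135-50373434, minus strand) rose. Each is written 5′ to 3′ on the strand of its gene, in lower case with every ETS or YY1 core in capitals.
MRPL19: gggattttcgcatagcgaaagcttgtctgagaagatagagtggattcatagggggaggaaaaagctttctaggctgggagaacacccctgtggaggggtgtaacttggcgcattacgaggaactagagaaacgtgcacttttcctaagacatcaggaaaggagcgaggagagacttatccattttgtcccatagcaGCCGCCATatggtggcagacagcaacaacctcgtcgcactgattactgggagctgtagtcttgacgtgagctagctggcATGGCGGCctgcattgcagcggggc
MRPS34: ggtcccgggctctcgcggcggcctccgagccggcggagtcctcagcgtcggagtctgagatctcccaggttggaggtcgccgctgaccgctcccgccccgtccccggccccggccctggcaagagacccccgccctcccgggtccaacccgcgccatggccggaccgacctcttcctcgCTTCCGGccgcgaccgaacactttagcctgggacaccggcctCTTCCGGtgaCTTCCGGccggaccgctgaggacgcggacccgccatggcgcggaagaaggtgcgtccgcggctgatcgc
MRPL46: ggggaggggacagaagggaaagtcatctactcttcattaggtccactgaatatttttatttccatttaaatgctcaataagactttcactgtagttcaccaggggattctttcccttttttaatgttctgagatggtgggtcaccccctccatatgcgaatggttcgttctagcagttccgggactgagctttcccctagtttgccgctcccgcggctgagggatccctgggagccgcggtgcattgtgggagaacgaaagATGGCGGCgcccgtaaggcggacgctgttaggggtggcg
MRPS18A: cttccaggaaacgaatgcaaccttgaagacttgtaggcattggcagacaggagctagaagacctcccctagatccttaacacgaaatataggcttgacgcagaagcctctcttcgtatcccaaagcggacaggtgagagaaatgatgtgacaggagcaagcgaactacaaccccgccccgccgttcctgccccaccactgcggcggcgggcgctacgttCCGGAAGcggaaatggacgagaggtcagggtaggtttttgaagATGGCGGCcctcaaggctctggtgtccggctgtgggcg
MRPL27: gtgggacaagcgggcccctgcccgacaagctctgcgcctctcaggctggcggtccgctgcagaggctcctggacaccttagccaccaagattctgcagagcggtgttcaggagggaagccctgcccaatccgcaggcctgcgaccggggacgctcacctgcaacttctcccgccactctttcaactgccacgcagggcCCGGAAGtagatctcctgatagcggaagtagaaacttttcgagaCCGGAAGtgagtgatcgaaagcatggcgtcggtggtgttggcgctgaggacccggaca

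MRPL19 carried the YY1 core on both strands, 54 bases before and 26 after the start, and no ETS core. MRPS34 carried 3 ETS cores on the opposite strand, 71, 29 and 19 bases before the start. MRPL46 had 1 YY1 core 12 bases after the start. MRPS18A had an ETS core 31 bases before and a YY1 core 13 bases after the start, and MRPL27 an ETS core 52 and another 8 bases before it. The windows of MRPL17, MRPL11, MRPL4, MRPL45, MRPS2, MRPS27, MRPS17 and MRPL42 held neither an ETS nor a YY1 core. That of MRPL17 held the NRF1 core, and those of MRPL45 and, in part, MRPS2 an E-box.

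The members lie on 21 chromosomes, with at most 8 on one, and 23 of them have a tested gene on the other strand whose start is within 1000 bases of theirs. MRPL46 and MRPS11 are such a pair, with starts 34 bases apart, and both fell (MRPS11 from 53.0 ± 12.8 to 28.6 ± 6.72 CPM, SD, n = 5; limma, adjusted p = 0.0235). Of the 21 neighbours that are no members, 6 were called lower (28.6%) and 3 higher (14.3%), with a median log2 change of -0.25, close to the 26.1%, 17.2% and -0.22 of all tested genes. Beside 13 members that fell, 5 neighbours fell, 1 rose and 7 were not called. MRPL36 shared its fall with NDUFS6, which encodes a subunit of respiratory complex I and starts 34 bases away (log2 changes -0.81 and -1.20). MRPL18 did so with TCP1, a chaperonin subunit 63 bases away (-1.32 and -0.69). For MRPS18B and PPP1R10 the changes were opposite, -0.63 and 1.46.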

How the data were processed

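RNA of AsPC-1 cells was sequenced from 5 control and 5 glutamine-starved libraries made with a QIAseq UPX 3′ kit, per the labels' protocols. The deposited table gives CPM per gene, already scaled by the authors so that each library sums to 1000000. hg19 is named in the submitters' processing notes, while no aligner, annotation, strand setting or handling of molecular identifiers is stated there. All CPM were whole multiples of the value of 1 read (100% within a relative tolerance of 1e-06), so library totals could be recovered. A 3′ count does not scale with transcript length, and it is not stated how reads shared by overlapping genes were assigned.

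The members, gene lists and structural regions were chosen with earlier results of these data known. The motifs, level ranges, neighbour distance and the cytosolic comparison were chosen after the table was seen. Groups were taken from the labels. Genes averaging at least 5 CPM (11202) were tested with limma-trend 3.58.1 in R 4.3.3 on log2(CPM + 1), with Benjamini-Hochberg adjustment over all tested genes and a threshold of 0.05. For genes with few reads a fold change on this scale can lie below the ratio of mean CPM, or above it where libraries are at 0. Named with every library are the 12 largest falls with at least 20 CPM in the higher group, all genes called higher, and the 4 uncalled genes of highest level. Of other lists up to 4 genes of smallest p may be named, by group means, and RNMTL1 and MTG2 are named outside this rule as the 2 that rose. MRPL57 was added to the table of protein roles after the file was seen. Alternatives were pseudocounts of 0.5 and 5, no filter and 20 CPM, a robust empirical Bayes step, a replicate block, scaling by TMM, by median of ratios or by quantiles, leaving out libraries, thinning to equal depth, and edgeR 4.0.16 and DESeq2 1.42.0 on the recovered reads. The fits were tested on simulated data.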

Additional observations from a re-analysis of the deposited data

How the results depend on the processing

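The count of genes called lower stayed between 37 and 46 in all 23 alternatives, where 10.5% to 31.7% of all tested genes were called lower, and the members' median log2 change between -0.87 and -0.71. Depth limits the calls of genes with few reads, and the lowest of these counts, 37, came from libraries thinned to equal depth, an alternative chosen after seeing the data. The median of all genes moved by more than 0.1 with no filter (0.139), quantile scaling (0.208), edgeR (0.137) and DESeq2 (0.118), and the median of these genes lay between 0.54 and 0.73 below it in every alternative. The count called higher was 5, but 9 with median-of-ratios scaling and with edgeR, and 2 after thinning. It was 3 to 6 when 1 library was left out (3 without starved library 3). Of all genes tested, 6.87% to 23.4% were called higher over the 23 alternatives, and 15.2% to 16.9% when 1 library was left out. The cause of the differing counts was not tested. The difference of the summed share was -0.312 percentage points, -0.320 to -0.303 when 1 library was left out, and -0.260 without the 5 members of highest level, which are no longer in the sum. With a replicate block, 44 genes were called lower and 5 higher, and MRPS16 lost its call (limma, adjusted p = 0.0532). The labels do not say whether the replicate numbers mark a pairing, and the deviations of same-numbered libraries correlated at -0.0158 to 0.0227. The log2 change of MRPS18C, uncalled throughout, turned positive with TMM (0.033), median-of-ratios scaling (0.078), edgeR (0.078), DESeq2 (0.064) and thinning (0.092), and ranged from -0.070 to 0.085 when 1 library was left out. That of MRPL35 was 0.023 after thinning. Of 482 results on 21 named genes under these alternatives, 448 kept their direction and side of the threshold, 20 lost a call, 4 gained one and 10 changed sign.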
